A study of Mus musculus with 12 samples.

Results

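Replication-dependent histone genes were followed across 12 mouse pancreatic tumours. Their members were all genes of the deposited tables whose Ensembl identifier carries a GENCODE M21 symbol that begins with Hist1h, Hist2h, Hist3h or Hist4h. This rule uses names only and gave 70 of the 52636 genes in the tables, 67 annotated as protein-coding and 3 as pseudogenes (Hist3h2bb-ps, Hist1h2aj and Hist1h2al). There were 6 genes for the linker histone H1, 20 for H2A, 19 for H2B, 12 for H3 and 13 for H4. On build GRCm38 the Hist1 cluster held 55 of them at chr13:21715763-23934851, and Hist1h2al lay apart at chr13:51202727-51203065. The Hist2 cluster held 10 at chr3:96219865-96270132, the Hist3 cluster 3 at chr11:58948920-58956830, and Hist4h4 stood alone at chr6:136801553-136804415.

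Cells need new histones chiefly while they copy their DNA, and most of that supply comes from these clustered genes. Their mRNAs usually lack introns and a poly(A) tail and end instead in a conserved stem-loop, which stem-loop binding protein (SLBP) holds from processing to decay, so that the mRNAs build up in S phase and are destroyed when it ends. A few members can also yield longer, polyadenylated mRNAs, a form described in cells that have stopped dividing. Replication-independent variants such as H3.3, H2A.Z and H1.0 are encoded by genes outside these clusters, with ordinary polyadenylated mRNAs.

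The study compared KPC mice with and without loss of a copy of CDH11, the gene of the adhesion protein cadherin 11, and with and without the nucleoside analogue gemcitabine, a chemotherapy that blocks DNA synthesis. KPC mice, a genetically engineered model that relies on a Cre active in the pancreas, develop pancreatic ductal adenocarcinoma (PDAC). All animals had the strain background given as C57BL/6; 129, and the groups were untreated KPC/CDH11+/+, untreated KPC/CDH11+/-, gemcitabine-treated KPC/CDH11+/+ and gemcitabine-treated KPC/CDH11+/-, with 3 mice each and 1 library of snap-frozen tumour tissue per mouse. The sources used here do not give the promoter of the Cre, the cells that lost CDH11, the age of the mice, or how much gemcitabine they received and when. Libraries were made from total RNA after removal of ribosomal RNA, with random primers, so mRNAs without a poly(A) tail could be captured.

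The 12 libraries held 39388328 to 56559413 expected counts each, with a median of 45785246. Cdh11 itself stood at 225, 282 and 165 CPM (expected counts scaled to a common library total with the TMM factors of edgeR) in untreated CDH11+/+ tumours and at 148, 115 and 73.6 CPM in untreated CDH11+/- tumours, without overlap. In treated tumours it stood at 142, 62.1 and 123 CPM for the label CDH11+/+ and at 108, 141 and 71.9 CPM for CDH11+/-, so the treated libraries are named by their labels only. The labelled tissue was met by epithelial markers, with Krt19 at 182 to 1059 CPM and Krt18 at 714 to 2000.3 CPM in every library. Summed fibroblast markers ranged from 4027 to 17105 CPM, and summed acinar enzymes from 4.29 to 492 CPM. Sex was uneven between groups: Xist, transcribed from the inactive X, stood at 1322 to 3567 CPM in untreated CDH11+/+ mice 1 and 3, untreated CDH11+/- mouse 1 and all 3 treated CDH11+/+ mice, and at 0.585 to 1.64 CPM in the other 6, where the Y-linked gene Uty stood at 8.63 to 138 CPM. Among treated tumours, sex and the genotype label cannot be told apart.

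The sequences that set these genes apart lie at both ends of the transcript. After the stop codon, GENCODE M21 transcripts of 33 members held a match to the stem-loop pattern GGNNCTTTTCAGNGCC, 24 to 58 bases past the stop (median 31). The pattern fixes the loop and most of the stem, so other forms were not searched. Its matches took 2 forms, 1 in H4 genes and 1 in the other classes. They are shown with the capitals marking the whole stem and loop.
26 members of H1, H2A, H2B and H3: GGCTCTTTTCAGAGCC
7 members of H4: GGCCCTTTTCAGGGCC
The second form was found in Hist1h4c, Hist1h4d, Hist1h4f, Hist1h4h, Hist1h4m, Hist1h4n and Hist4h4. Many gene models stop at or soon after the stop codon: of 48 members with at least 60 annotated bases of 3′ UTR, 31 held the pattern, and of the 22 with less, 2 did. A model that ends early shows nothing about the mRNA itself. Some longer models also held no match, such as that of Hist2h2be, with 2192 bases of 3′ UTR. Of the 13 H4 genes, 7 matched, so the form in the others is not known from this search. In 11 members the annotated transcript ran on for 500 bases or more beyond the stem-loop, among them Hist1h1c, with 840 bases, Hist1h2ac, with 2010, and Hist4h4, with 2445.

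At the other end, 62 of the 70 members matched 1 RefSeq promoter each (build GRCm38.p6, 250 bases before to 50 after the start of transcription), on the gene's strand and with its start within 2000 bases of the gene's own. Motifs were searched as exact letters on both strands, and a match is a description of these windows, not a bound site. The CCAAT box (CCAAT, bound by NF-Y) was in 53 of the 62 promoters (85.5%) against 37.4% of all 32851 RefSeq promoters. It was in every promoter of H1, H2A, H2B and H3 and in 3 of 12 of H4. The TATA box (TATAAA) was in 35 (56.5%, against 13.6%). The octamer (ATTTGCAT, bound by Oct-1) was in 13 (21.0%, against 1.74%), 7 of them among 18 H2A and 6 among 16 H2B promoters. Where an H2A and an H2B gene lie head to head, their windows overlap, and a match can be counted for both genes. This was so for the octamer of Hist1h2ae and Hist1h2bg, of Hist1h2ah and Hist1h2bk, and of Hist1h2aa and Hist1h2ba. The H2A and H2B counts of a motif are therefore not independent. An H1 element searched as AAACACAAA was in 3 (4.84%, against 0.767%), 1 each of H1, H2A and H2B, the H1 gene being Hist1h1t. The shorter form AAACACA, which this search does not count, also stands in the promoters of Hist1h1b, Hist1h1c, Hist1h1d and Hist1h1e. The 3 promoters below belong to genes whose levels are followed through the results, with matches to the CCAAT box, the TATA box and the octamer on either strand in capitals.
Hist1h2bg, chr13:23571150-23571449, plus strand, GRCm38.p6: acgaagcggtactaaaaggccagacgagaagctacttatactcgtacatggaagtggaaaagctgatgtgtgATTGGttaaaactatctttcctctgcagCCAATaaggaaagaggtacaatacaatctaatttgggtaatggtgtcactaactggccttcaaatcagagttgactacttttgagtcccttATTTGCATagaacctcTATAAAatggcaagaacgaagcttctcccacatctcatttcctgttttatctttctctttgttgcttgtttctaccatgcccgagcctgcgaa
Hist1h4d, chr13:23581318-23581617, plus strand, GRCm38.p6: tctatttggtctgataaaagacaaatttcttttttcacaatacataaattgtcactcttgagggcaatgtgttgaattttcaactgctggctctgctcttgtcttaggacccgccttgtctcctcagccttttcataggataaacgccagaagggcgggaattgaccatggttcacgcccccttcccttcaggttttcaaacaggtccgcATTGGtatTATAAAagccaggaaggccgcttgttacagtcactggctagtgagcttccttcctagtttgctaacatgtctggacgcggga
Hist1h1c, chr13:23738557-23738856, plus strand, GRCm38.p6: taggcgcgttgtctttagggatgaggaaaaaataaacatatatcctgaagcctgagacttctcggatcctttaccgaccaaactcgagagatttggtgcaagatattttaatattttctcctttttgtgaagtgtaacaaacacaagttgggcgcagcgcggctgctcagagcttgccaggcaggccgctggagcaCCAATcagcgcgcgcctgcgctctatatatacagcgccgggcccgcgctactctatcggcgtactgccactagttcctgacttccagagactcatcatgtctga
The H2B promoter held all 3 motifs, the H4 promoter the CCAAT and TATA boxes, and the promoter of the linker histone gene the CCAAT box.

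Close copies set a limit on every single-gene value. Transcripts joined by at least 95% identity over at least 50% of the length formed 26 groups, and the 6 groups with more than 1 gene held 50 of the 70 members, the largest 13. All H3 genes fell in the same group. Windows of 75 bases were scored in 1 transcript per member, that with the longest coding sequence and then the fewest bases. A median of 56.0% of a member's windows occurred in no transcript of another GENCODE gene. Hist1h2bq, Hist1h2br, Hist2h2aa2 and Hist2h3c1 had no such window in that transcript. Hist1h2bq and Hist1h2br also have models with 3′ UTRs of 1608 and 1803 bases, which were not scored. RSEM divides reads that fit several copies by estimate, so class sums are given first and values of close copies are uncertain.

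Summed over all 70 genes, histone levels differed more between tumours of a group than between group means. The sum was 814, 1122 and 1229.5 CPM in untreated CDH11+/+ tumours, 823, 884 and 2327 in untreated CDH11+/-, 558, 2621 and 750.1 in treated CDH11+/+ and 901, 2077 and 1102 in treated CDH11+/- tumours. Untreated CDH11+/- mouse 3, treated CDH11+/+ mouse 2 and treated CDH11+/- mouse 2 stood highest, and no untreated CDH11+/+ tumour reached them. The lowest sum, in treated CDH11+/+ mouse 1, lay 4.70-fold below the highest, in mouse 2 of the same group. Group means were 1055 ± 216 CPM for untreated CDH11+/+, 1344 ± 852 CPM for untreated CDH11+/-, 1309.7 ± 1140.0 CPM for treated CDH11+/+ and 1359.7 ± 629 CPM for treated CDH11+/- tumours (SD, n = 3 each), and all 4 groups overlapped. In bulk tissue, fewer cells in S phase and less histone mRNA per cell cannot be told apart.

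**Figure D1:**
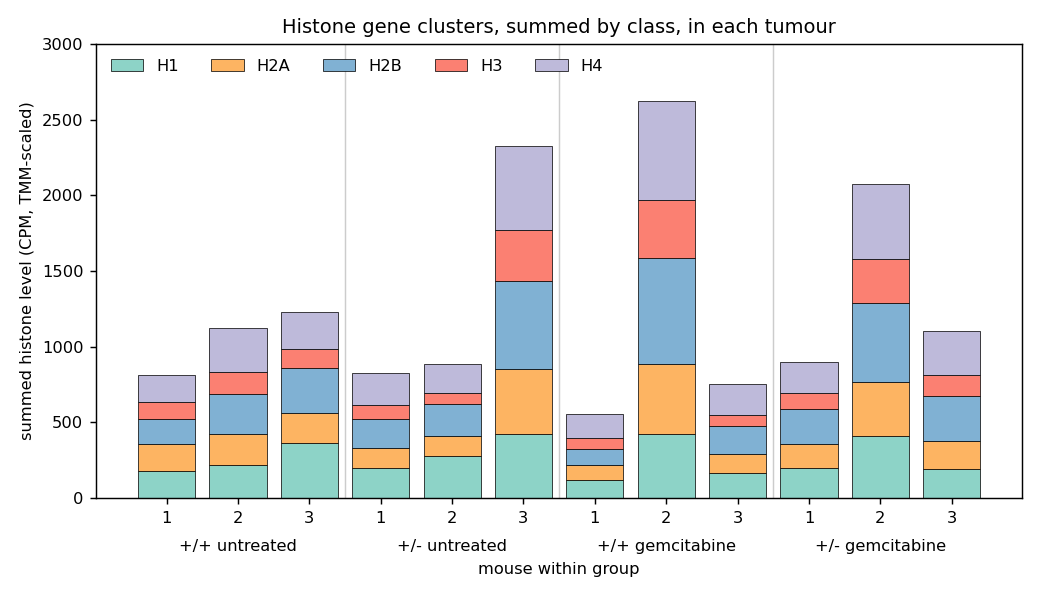
Summed level (CPM, vertical axis) of the histone genes in each of the 12 tumours, ordered by group and mouse, with the bar divided into H1, H2A, H2B, H3 and H4 genes. The 3 tallest bars, at 2327, 2621 and 2077 CPM, belong to 3 different groups.

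Each of the 5 classes had the same 3 highest tumours. The linker histones, which bind the DNA entering and leaving the nucleosome, summed to 175, 216 and 364 CPM in untreated CDH11+/+ tumours, 199.6, 276 and 424 in untreated CDH11+/-, 121, 424 and 164 in treated CDH11+/+ and 194, 408 and 194 in treated CDH11+/- tumours. Among the core histones, H2A genes summed to 181, 203 and 197 CPM, 132, 130.3 and 430.1 CPM, 97.4, 461 and 124 CPM and 165, 359.7 and 182 CPM in the same order of groups. Their partners in the dimer, the H2B genes, summed to 167, 271 and 301 CPM, 189, 212 and 578 CPM, 105, 702 and 184 CPM and 231, 522 and 295 CPM in the same order of groups. The same 3 tumours were the highest for H1, H2A and H2B, and H2B had the widest range of any class, 6.67-fold from lowest to highest. H3 genes summed to 107, 141 and 123 CPM, 95.1, 72.1 and 340.0 CPM, 71.2, 380.5 and 73.8 CPM and 102, 291 and 143 CPM in the same order of groups. The same 3 tumours led again. H4 genes, whose product pairs with H3, summed to 183, 290.3 and 244 CPM, 207, 193 and 555 CPM, 163, 655 and 204 CPM and 208, 496 and 288 CPM in the same order of groups. H1 had the narrowest range, 3.50-fold, and includes Hist1h1c, the member with the highest mean CPM, which followed another order. The ratio of the H3 to the H4 sum stayed between 0.362 and 0.613 in the 12 libraries, and that of H2A to H2B between 0.614 and 1.08.

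Most single genes stood highest in the tumours where the sum was highest. All 70 members had a count in at least 1 library and 62 in all 12, and 64 passed the filter on low counts that left 24065 genes for testing. Of these 64, 50 (78.1%) had the same 3 highest tumours as the sum, against 768 of the 24065 tested genes (3.19%). The members make up the sum, so the share among them is a description and not a test. It was complete for H3 (11 of 11), nearly so for H4 (11 of 12), and lower for H2B (13 of 18), H2A (11 of 17) and H1 (4 of 6). Close copies share reads, so the H3 genes are not fully separate measurements. Treated CDH11+/+ mouse 2 was the highest tumour for 45 members, and mouse 1 of that group the lowest for 38. From the lowest to the highest tumour, the 62 members without a zero varied by a median of 7.41-fold, against a median of 3.14-fold for the 22231 tested genes without a zero. The biological coefficient of variation, the spread between mice of a group that edgeR estimates, had a median of 62.5% over the tested members (26.7% to 122%) and 37.6% over all tested genes.

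**Figure D2:**
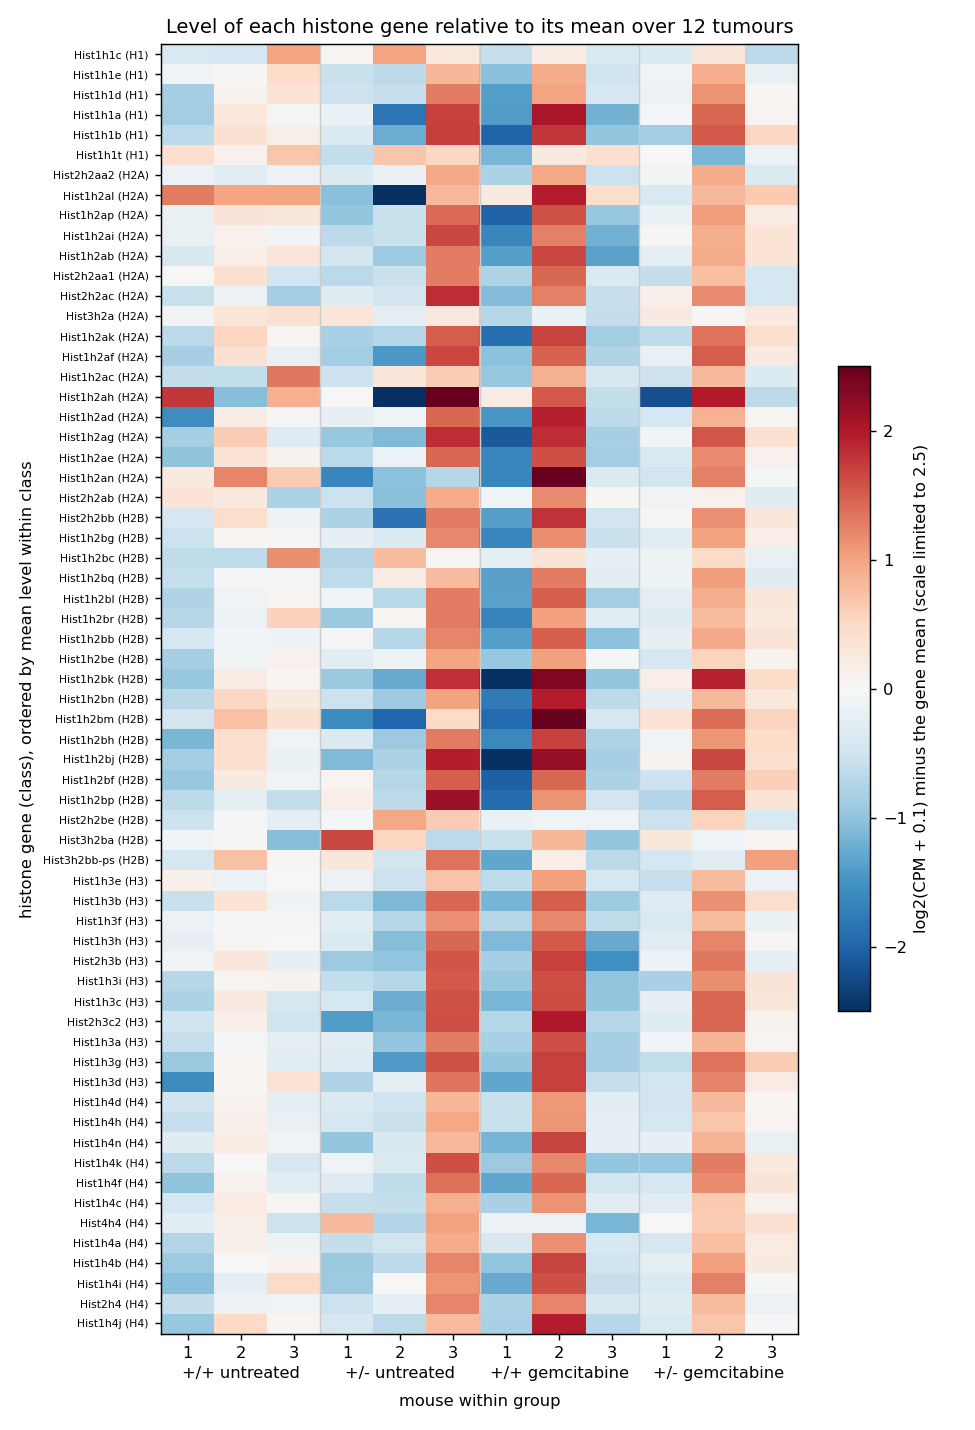
Level of each of the 64 tested histone genes (rows, by class and mean level) in each tumour (columns, by group and mouse), as log2(CPM + 0.1) minus the gene's mean over 12 tumours. Red columns mark untreated CDH11+/- mouse 3, treated CDH11+/+ mouse 2 and treated CDH11+/- mouse 2, which were the 3 highest tumours for 50 of the 64 genes.

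The leading H2B and H4 genes show the pattern at high counts. Hist1h2bg (H2B, chr13:23571396-23572013, plus strand, a single exon), whose promoter is printed above, stood at 23.7, 35.6 and 33.8 CPM in untreated CDH11+/+ tumours, 29.8, 26.95 and 79.3 in untreated CDH11+/-, 11.1, 77.6 and 23.3 in treated CDH11+/+ and 28.6, 69.2 and 38.5 in treated CDH11+/- tumours. Its 3 highest values, 79.3, 77.6 and 69.2 CPM, came from 3 groups, and every other tumour lay at or below 38.5 CPM. Hist1h4d (H4, chr13:23581598-23582735, plus strand) stood at 36.5, 55.4 and 44.5 CPM, 40.5, 36.7 and 92.6 CPM, 35.3, 109.6 and 43.2 CPM and 37.5, 91.2 and 53.7 CPM in the same order of groups. Hist1h4h stood at 29.8, 48.4 and 39.3 CPM, 33.2, 30.4 and 87.6 CPM, 30.3, 95.2 and 37.5 CPM and 32.8, 72.2 and 46.98 CPM in the same order of groups. In the same 3 tumours both H4 genes lay at 72.2 CPM or more, and in the other tumours between 29.8 and 55.4 CPM. Hist1h4n, the next H4 gene by mean CPM, ranged from 18.5 to 134 CPM. Hist2h2bb, the H2B gene with the highest mean, ranged from 9.34 CPM in untreated CDH11+/- mouse 2 to 118 CPM in treated CDH11+/+ mouse 2.

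The H3 genes had lower CPM one by one, and all 11 tested followed the shared order. Hist1h3e stood at 24.996, 20.9 and 22.7 CPM in untreated CDH11+/+ tumours, 20.8, 15.7 and 37.9 in untreated CDH11+/-, 14.7, 46.9 and 16.8 in treated CDH11+/+ and 15.4, 39.6 and 20.8 in treated CDH11+/- tumours. Hist1h3b stood at 10.8, 20.3 and 14.6 CPM, 9.94, 7.27 and 43.4 CPM, 7.10, 45.8 and 8.60 CPM and 12.7, 35.5 and 21.6 CPM in the same order of groups. Hist1h3f ranged from 10.5 to 39.9 CPM. In each of these 3 genes the same tumours were the highest, and the untreated CDH11+/+ tumours lay within 10.8 to 24.996 CPM. Among H2A genes the highest was Hist2h2aa2, at 61.6, 56.7 and 61.6 CPM, 54.2, 60.6 and 132 CPM, 39.5, 134 and 46.9 CPM and 65.4, 130.4 and 52.9 CPM in the same order of groups. It has a near-identical neighbour in Hist2h2aa1 and no unique 75-base window, so its level may include reads of its copies. Hist1h2ap ranged from 3.74 to 46.9 CPM. Per kilobase of annotated exon, mean levels over the 12 tumours were highest for Hist2h2aa2, at 141 CPM per kb, followed by Hist2h2bb (113), Hist1h4n (113) and Hist1h4h (104). Models that end at the stop codon are shorter than the mRNA, which raises a level per kilobase.

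Linker histones divided in their order. Hist1h1e (H1.4) stood at 58.02, 62.3 and 84.2 CPM in untreated CDH11+/+ tumours, 41.5, 39.3 and 109.8 in untreated CDH11+/-, 29.6, 118 and 43.4 in treated CDH11+/+ and 57.1, 115 and 53.8 in treated CDH11+/- tumours, and Hist1h1d (H1.3) at 14.4 to 91.0 CPM. Hist1h1a (H1.1) was at 9.37, 20.7 and 16.9 CPM, 15.3, 4.75 and 56.2 CPM, 6.42, 70.5 and 7.52 CPM and 16.5, 46.3 and 18.1 CPM in the same order of groups, and Hist1h1b (H1.5) at 3.30 to 46.6 CPM. These 4 genes shared the 3 highest tumours with the sum. Hist1h1c (H1.2, chr13:23738808-23740367, plus strand), the member with the highest mean CPM, did not, at 78.03, 74.7 and 199 CPM, 106, 201 and 122 CPM, 67.4, 115 and 77.8 CPM and 79.6, 125 and 63.9 CPM in the same order of groups. Its highest tumours were untreated CDH11+/- mouse 2 and untreated CDH11+/+ mouse 3, and the first of these was the lowest of all 12 tumours for 11 other members. Hist1h1t, the testis linker histone, had 0 to 13 expected counts per library.

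Of the 64 tested members, 14 departed from the shared order, Hist1h1c and Hist1h1t among them. Hist1h2bc (H2B, chr13:23684199-23692908, plus strand, with a spliced model) stood at 18.4, 18.5 and 64.2 CPM in untreated CDH11+/+ tumours, 17.3, 49.4 and 30.03 in untreated CDH11+/-, 24.2, 36.02 and 24.6 in treated CDH11+/+ and 26.1, 39.9 and 25.1 in treated CDH11+/- tumours. Its highest tumours were those of Hist1h1c. Hist1h2ac, its divergent H2A neighbour, stood at 2.40, 2.35 and 9.38 CPM, 2.52, 4.53 and 5.80 CPM, 1.86, 6.85 and 2.76 CPM and 2.52, 6.56 and 2.89 CPM in the same order of groups, highest in untreated CDH11+/+ mouse 3. Hist2h2be (H2B, chr3:96221119-96223738) stood at 2.62, 3.69 and 3.29 CPM, 3.69, 7.64 and 6.05 CPM, 3.41, 3.55 and 3.55 CPM and 2.62, 5.70 and 2.93 CPM in the same order of groups, highest in untreated CDH11+/- mouse 2. The 3′ UTR models of these 4 genes measure 742 bases in Hist1h2bc, 880 in Hist1h1c, 2058 in Hist1h2ac and 2192 in Hist2h2be. Of the 16 tested members with a 3′ UTR model of at least 500 bases, 10 shared the 3 highest tumours, and of the 48 with a shorter one, 40 did. The fold range over tumours had a median of 4.05 in the first set and 8.78 in the second, and the biological coefficient of variation 46.6% and 67.2%.

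**Figure D3:**
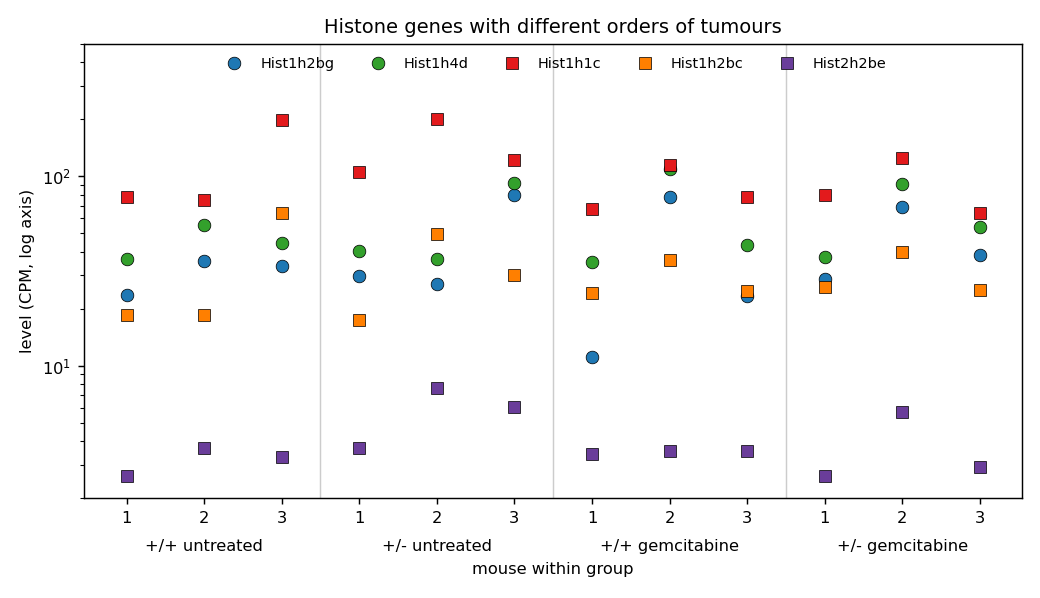
Level (CPM, log axis) of 5 histone genes in each tumour: circles mark Hist1h2bg and Hist1h4d, squares mark Hist1h1c, Hist1h2bc and Hist2h2be. The circles peak in untreated CDH11+/- mouse 3, treated CDH11+/+ mouse 2 and treated CDH11+/- mouse 2, while Hist1h1c reaches 199 CPM in untreated CDH11+/+ mouse 3 and 201 CPM in untreated CDH11+/- mouse 2.

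The summed level of the 17 members with long 3′ UTR models, set over that of the 53 others, restates this at the level of the tumour. The ratio was 0.608, 0.542 and 0.938 in untreated CDH11+/+ tumours, 0.741, 1.18 and 0.452 in untreated CDH11+/-, 0.778, 0.388 and 0.759 in treated CDH11+/+ and 0.652, 0.498 and 0.537 in treated CDH11+/- tumours. It was highest in untreated CDH11+/- mouse 2 and untreated CDH11+/+ mouse 3 and lowest in treated CDH11+/+ mouse 2, and the groups overlapped. The long set includes Hist1h1c, the member with the highest mean CPM, and Hist1h2bc, which were themselves highest in those untreated tumours. A ratio without these genes was not taken.

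The other departures included genes of narrow range and genes of low or uneven count. Hist3h2a (H2A, chr11:58954685-58956830) had the narrowest range of all members, 2.15-fold, at 10.01, 12.9 and 13.6 CPM in untreated CDH11+/+ tumours, 12.9, 8.80 and 12.6 in untreated CDH11+/-, 6.34, 9.24 and 6.90 in treated CDH11+/+ and 12.2, 10.7 and 12.4 in treated CDH11+/- tumours. Hist4h4 (H4) stood at 14.3, 19.2 and 11.9 CPM, 30.4, 10.4 and 34.97 CPM, 15.7, 15.7 and 7.74 CPM and 17.2, 26.9 and 22.5 CPM in the same order of groups. Hist1h2bm ranged from 1.62 to 37.9 CPM, Hist1h2an from 0.677 to 13.4 CPM and Hist2h2ab from 0.561 to 3.00 CPM. Hist3h2ba ranged from 0.217 to 2.00 CPM and Hist3h2bb-ps from 0.0874 to 1.09 CPM. Hist1h2al, annotated as a pseudogene, had 1 expected count in untreated CDH11+/- mouse 2 and 280 to 2144 in the other 11 libraries. Hist1h2ah had 0 in the same library, and 19 to 686 in the others. They share windows of 75 bases with 4 and 15 other members, and 54.3% of the windows of Hist1h2al occurred in no transcript of another gene. The part that the division of shared reads plays in these counts was not tested.

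The 6 members that did not pass the filter were Hist1h2ao, Hist1h2aj, Hist1h2aa, Hist1h2ba, Hist2h3c1 and Hist1h4m. The testis histones Hist1h2aa and Hist1h2ba had at most 1 and 3 expected counts in any library. Hist1h2ao, an H2A copy, had 29 and 23 in 1 library each and 0 in the others, and Hist1h2aj had 25 in 1 library only. Hist2h3c1, an H3 copy, had 75 in untreated CDH11+/+ mouse 1 and 0 in the other 11. Hist1h4m had 36 in that tumour, 43 in treated CDH11+/+ mouse 1 and 0 elsewhere.

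H2A and H2B genes often lie head to head, and 14 such divergent pairs lay at most 500 bases apart, with 172 to 305 bases between the 2 genes (median 246). Both genes shared the 3 highest tumours with the histone sum in 6 of the 14 pairs. The other pairs include those with Hist1h2aj, Hist1h2ao, Hist1h2aa or Hist1h2ba, genes that did not pass the filter on low counts. Levels within a pair ranged from near equal to far apart. Hist1h2br and Hist1h2ap, with means of 24.7 and 19.5 CPM, had a ratio of 0.928 to 2.19 over the 12 tumours, and Hist1h2bn and Hist1h2ak, with 12.4 and 8.65 CPM, a ratio of 1.02 to 2.00. Hist1h2bg, with a mean of 39.8 CPM, and its neighbour Hist1h2ae, with 3.45 CPM, lay 175 bases apart, and their ratio stayed between 9.16 and 18.2 over the 12 tumours. In the pair of Hist2h2be and Hist2h2ac, 238 bases apart, the ratio ran from 0.140 to 1.01, and Hist2h2ac followed the shared order while Hist2h2be did not. Hist1h2bc and Hist1h2ac, 250 bases apart, both departed from it, with a ratio of 5.18 to 13.02.

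Other genes of dividing cells were set beside the histones from fixed lists. The sum of 24 S phase and replication genes (such as the Mcm helicase subunits) was 411, 491 and 645 CPM in untreated CDH11+/+ tumours, 394, 433 and 858 in untreated CDH11+/-, 666, 1033 and 386 in treated CDH11+/+ and 513, 927 and 635 in treated CDH11+/- tumours. The 3 tumours with the most histone mRNA also had the 3 highest sums here. Per unit of that sum, the histone sum was 1.98, 2.28 and 1.91 in untreated CDH11+/+ tumours, 2.09, 2.04 and 2.71 in untreated CDH11+/-, 0.838, 2.54 and 1.94 in treated CDH11+/+ and 1.76, 2.24 and 1.74 in treated CDH11+/- tumours. In 11 tumours this ratio lay between 1.74 and 2.71. In treated CDH11+/+ mouse 1 it was 0.838, with an S phase sum of 666 CPM, the fourth highest of the 12, and the lowest histone sum. The groups overlapped in this ratio. The 20 genes of G2 and mitosis ranged from 232 to 1375 CPM, and all 20 had the same 3 highest tumours as the histones, against 13 of 24 S phase genes. The proliferation marker Mki67 ranged from 64.2 to 405 CPM. None of the 8 epithelial, 9 fibroblast, 8 leukocyte and 10 acinar markers had these 3 highest tumours. How far the amount of dividing cells sets the histone levels was not tested.

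**Figure D4:**
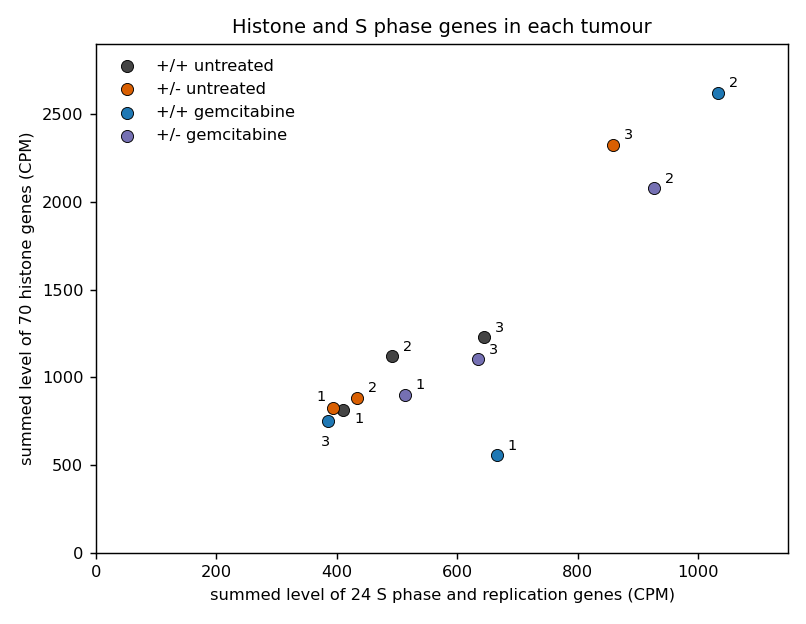
Summed level of the 70 histone genes (vertical axis, CPM) against that of 24 S phase and replication genes (horizontal axis, CPM) in each tumour, coloured by group and numbered by mouse. The 3 tumours at 2077 to 2621 CPM of histone genes lie at the upper right, and treated CDH11+/+ mouse 1 lies below the others of its S phase level, at 558 CPM of histone genes against 666 CPM.

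The sum of the replication-independent variants varied over a narrower range. Their 11 genes summed to 838 to 1157 CPM, a 1.38-fold range, against 4.70-fold for the clustered genes, and 3 of the 11 had the shared 3 highest tumours. Single variants such as H3f3b, H2afz and H1f0 each varied over a wider range than this sum. H3f3b, which encodes H3.3, stood at 443, 319 and 493 CPM in untreated CDH11+/+ tumours, 516, 507 and 283 in untreated CDH11+/-, 364, 348 and 442 in treated CDH11+/+ and 418, 329 and 349 in treated CDH11+/- tumours, and in treated CDH11+/+ mouse 2, the tumour with the most clustered histone mRNA, it was below the median of 391 CPM. H2afz (H2A.Z) ranged from 70.6 to 195 CPM and was highest in treated CDH11+/+ mouse 2 and untreated CDH11+/- mouse 3. H1f0 (H1.0), a linker histone of resting cells, stood at 106, 67.8 and 191 CPM, 154, 193 and 68.7 CPM, 140.1, 99.01 and 98.7 CPM and 139, 102 and 47.4 CPM in the same order of groups. Like Hist1h1c it was highest in untreated CDH11+/- mouse 2 and untreated CDH11+/+ mouse 3.

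Factors that make and handle histone mRNA, 17 genes, summed to 726 to 1142 CPM (1.57-fold). Slbp stood at 29.9, 30.8 and 23.2 CPM in untreated CDH11+/+ tumours, 18.2, 23.7 and 44.2 in untreated CDH11+/-, 29.5, 48.03 and 26.1 in treated CDH11+/+ and 24.2, 45.4 and 37.4 in treated CDH11+/- tumours. It was highest in the same 3 tumours as the histones, over a 2.64-fold range. Npat, the coactivator of histone transcription at the S phase entry, ranged from 32.4 to 56.4 CPM and did not share that order. Casp8ap2 (FLASH), needed to cut the mRNA behind the stem-loop, ranged from 28.8 to 75.04 CPM. Histone chaperones, 22 genes, summed over a 1.39-fold range, and 5 of them shared the 3 highest tumours. Asf1b, the chaperone of new H3 and H4 in dividing cells, ranged from 2.64 to 13.3 CPM and Chaf1a, the large subunit of the assembly factor CAF-1, from 6.09 to 33.1 CPM.

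The first question of the design is whether loss of a CDH11 copy goes with other levels in untreated tumours. No histone gene passed the test: 0 of 64 members had an adjusted p below 0.05 by edgeR's quasi-likelihood test, against 0.0166% of all 24065 genes. At an unadjusted p below 0.05 there was 1 member, against 12.2% of all genes, and DESeq2 also called 0, against 2.93%. Most fitted values lay above 0 in CDH11+/- tumours, with a median of 0.44 on the log2 scale over the members and 0.04 over all genes tested, and with 55 members above 0 and 9 below (53.7% of all genes were above 0). All 11 H3 and all 12 H4 members were above 0, from 0.12 to 0.84 and from 0.07 to 0.99. The H3 members are close copies that share reads. With close copies summed, which left 24 units, 21 lay above 0 and 3 below. Without untreated CDH11+/- mouse 3 the median turned to -0.43. With Xist level as a covariate it was 0.06, with 37 above 0 and 27 below, and with an acinar covariate 0.28. In the same comparison all 9 fibroblast markers lay below 0 with an unadjusted p below 0.05 and a median of -1.32, and 9 of 10 acinar markers had an unadjusted p below 0.05, with a median of -8.29 over the 10. None of these markers was called by edgeR. The part of the fibroblast markers in the histone differences was not tested. The 95% interval of a single member reached a median of 1.64 to either side, wider than the median difference itself.

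Hist2h2be had the smallest p of the members. In CDH11+/- and CDH11+/+ tumours it stood at 3.69, 7.64 and 6.05 and 2.62, 3.69 and 3.29 CPM, a difference of 0.86 ± 0.37 on the log2 scale (SE, edgeR, 95% interval 0.05 to 1.66, adjusted p = 0.384). It was also the only member to lie higher in all CDH11+/- than in all CDH11+/+ untreated tumours, which 7.36% of all tested genes did. Hist1h2an lay lower in every CDH11+/- tumour, at 0.680, 1.08 and 1.37 against 2.76, 5.48 and 3.61 CPM, a difference of -1.92 ± 0.91 on the log2 scale (SE, edgeR, 95% interval -3.92 to 0.08, adjusted p = 0.43). Hist1h2al also lay lower without overlap, as 8.41% of all genes did. Hist1h2bp differed by 1.58 ± 0.88 (adjusted p = 0.499 by edgeR) and Hist3h2ba by 1.26 ± 0.72 (adjusted p = 0.509 by edgeR), both with overlapping groups.

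Between gemcitabine-treated tumours labelled CDH11+/- and CDH11+/+, fitted histone differences lay on both sides of 0. Here 0 of 64 members were called by edgeR (0.00416% of all genes) and 0 by DESeq2 (0.972%), with 1 member at an unadjusted p below 0.05 (7.55% of all genes). The members' median difference was 0.07, against -0.03 over all genes, with 38 above 0 and 26 below (46.9% of all genes were above 0). With close copies summed, the split was 12 to 12. With no scaling beyond library totals, the split of the members was 54 to 10, and the median of all genes moved from -0.03 to 0.11. The median turned to -0.44 without treated CDH11+/- mouse 2, to -0.34 without treated CDH11+/+ mouse 1 and to -0.26 without mouse 3 of that group, and reached 1.34 without its mouse 2. In that last fit 62 members lay above 0 and 4 below. An unadjusted p below 0.05 by edgeR was found for 17 of 66 members (1646 of 24975 genes), and 0 were called. The Xist level separated all 3 CDH11+/+ from all 3 CDH11+/- tumours here, with Uty differing by 10.45 and Xist by -11.42 on the log2 scale, and the 5 sex-chromosome genes listed all had an unadjusted p below 0.05. With Xist level as a covariate, which only the untreated tumours separate from genotype, the members' median was -0.82, with 8 above 0 and 56 below. Acinar markers (8 of 10, median -5.68) and leukocyte markers (6 of 8, median 2.05) also had an unadjusted p below 0.05, and the part of the leukocyte markers was not tested. Hist3h2a, at 12.2, 10.7 and 12.4 CPM in CDH11+/- and 6.34, 9.24 and 6.90 CPM in CDH11+/+ tumours, did not overlap, and differed by 0.65 ± 0.24 on the log2 scale (SE, edgeR, 95% interval 0.11 to 1.18, adjusted p = 0.589). Hist4h4, at 17.2, 26.9 and 22.5 and 15.7, 15.7 and 7.74 CPM, also did not overlap, with a difference of 0.77 ± 0.43 on the log2 scale (SE, edgeR, 95% interval -0.17 to 1.71, adjusted p = 0.762). Of all tested genes, 7.12% were higher without overlap in the same direction. No member was lower without overlap (6.59% of all genes were).

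Over both treatments, the genotype difference averaged a median of 0.27 for the members and 0.01 for all genes, with 54 members above 0 and 10 below (51.3% of all genes were above 0). edgeR called 0 members (0.0332% of all genes) and DESeq2 0 (1.25%), and 1 member had an unadjusted p below 0.05 (7.66% of all genes). That member was Hist4h4, with 0.75 ± 0.30 on the log2 scale (SE, edgeR, 95% interval 0.09 to 1.42, adjusted p = 0.594). Without untreated CDH11+/- mouse 3 the median turned to -0.19, and with Xist level as a covariate to -0.34, with 12 above 0 and 52 below. Without treated CDH11+/+ mouse 2 it rose to 0.87, with 60 above 0 and 6 below. In that fit 25 of 66 members had an unadjusted p below 0.05 by edgeR (2045 of 24975 genes), and 0 were called. Fibroblast markers had a median of -0.81 (7 of 9 at an unadjusted p below 0.05) and acinar markers of -7.07 (9 of 10), and with an acinar covariate the members' median was 0.15.

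The second question is what gemcitabine goes with. In CDH11+/+ tumours edgeR called 0 of 64 members, as it called 0 of all genes (0.0%), and DESeq2 called 0 members against 0.507% of all genes. At an unadjusted p below 0.05 there was 1 member (8.6% of all genes). The members' median was 0.47 against 0.01 over all genes, with 55 above 0 and 9 below (51.0% of all genes were above 0). With close copies summed, 18 lay above 0 and 6 below. All 11 H3 members, which are close copies, were above 0, from 0.19 to 1.08, and 11 of 12 H4 members were. This direction rested on 1 tumour: without treated CDH11+/+ mouse 2 the median turned to -0.77. It was 0.11 with an acinar covariate, 0.17 with mouse number as a block and 0.74 with Xist level as a covariate. Fibroblast markers had a median of -0.80 (4 of 9 at an unadjusted p below 0.05), and their part was not tested. Hist3h2a had the smallest p. At 6.34, 9.24 and 6.90 CPM in treated and 10.01, 12.9 and 13.6 CPM in untreated CDH11+/+ tumours, it differed by -0.70 ± 0.24 on the log2 scale (SE, edgeR, 95% interval -1.24 to -0.17, adjusted p = 0.559), and it was the only member lower without overlap, as 7.17% of all genes were. None was higher without overlap, as 6.53% of all genes were. Hist1h2ad (1.02 ± 0.86, edgeR adjusted p = 0.741), Hist2h3c2 (1.08 ± 0.92, adjusted p = 0.745) and Hist3h2bb-ps (-0.88 ± 0.78, adjusted p = 0.751) followed by p, all with overlapping groups.

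In CDH11+/- tumours edgeR called 0 members (0.00831% of all genes), DESeq2 0 (0.706%), and none had an unadjusted p below 0.05 by either tool (7.9% of all genes by edgeR). The median was 0.08 against -0.03 over all genes, with 41 above 0 and 23 below (46.8% of all genes were above 0). It turned to -0.42 without treated CDH11+/- mouse 2, to -0.20 without untreated CDH11+/- mouse 1 and to -0.25 without mouse 2 of that group, and reached 0.88 without its mouse 3. With Xist level as a covariate it turned to -0.16, with 7 above 0 and 57 below, and with an acinar covariate to -0.082. Leukocyte markers had a median of 1.45 (3 of 8 at an unadjusted p below 0.05), and their part was not tested. Hist1h2an was the only member higher without overlap in treated tumours (6.64% of all genes), at 1.65, 5.66 and 2.25 against 0.680, 1.08 and 1.37 CPM, a difference of 1.61 ± 0.90 on the log2 scale (SE, edgeR, 95% interval -0.38 to 3.59, adjusted p = 0.676). The same low untreated values enter its comparison between untreated genotypes, and most of its windows also occur in other transcripts. No member was lower without overlap (6.08% of all genes). Hist2h2be (-0.63 ± 0.37, edgeR adjusted p = 0.683), Hist1h1c (-0.68 ± 0.42, adjusted p = 0.7) and Hist1h2bm (1.46 ± 0.98, adjusted p = 0.721) overlapped between the groups.

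Averaged over genotypes, gemcitabine gave a median of 0.26 for the members and -0.01 for all genes, with 53 members above 0 and 11 below (49.1% of all genes were above 0). There were 0 members called by edgeR (0.00831% of all genes), 0 by DESeq2 (0.125%), and none at an unadjusted p below 0.05 (4.45% by edgeR). The median turned to -0.34 without treated CDH11+/+ mouse 2 and was -0.0037 with an acinar covariate. Hist1h1c differed by -0.56 ± 0.30 on the log2 scale (SE, edgeR, 95% interval -1.21 to 0.10, adjusted p = 0.942) and Hist3h2a by -0.33 ± 0.17 on the log2 scale (SE, edgeR, 95% interval -0.71 to 0.04, adjusted p = 0.942). Hist1h2bg differed by 0.13 ± 0.45 on the log2 scale (SE, edgeR, 95% interval -0.86 to 1.13, adjusted p = 0.981) and Hist1h4d by 0.28 ± 0.35 on the log2 scale (SE, edgeR, 95% interval -0.48 to 1.05, adjusted p = 0.955). No member's interval left out 0.

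**Figure D5:**
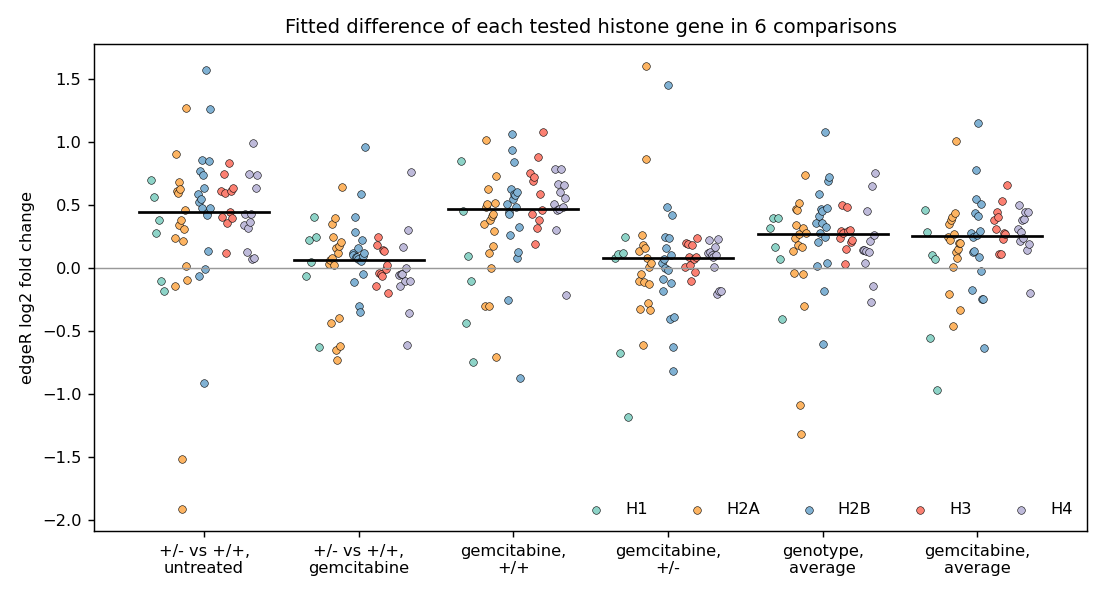
Fitted edgeR log2 fold change (vertical axis) of each of the 64 tested histone genes in 6 comparisons (horizontal axis), coloured by class, with the black line at the median. Medians lie at 0.44, 0.07, 0.47, 0.08, 0.27 and 0.26 from left to right, and no point passed the test.

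Whether the gemcitabine difference itself depended on genotype was tested as the interaction, the difference in CDH11+/- minus that in CDH11+/+ tumours. edgeR called 0 members (0.00831% of all genes) and DESeq2 0 (2.73%), and none had an unadjusted p below 0.05 by edgeR (12.7% of all genes), while 1 did by DESeq2. The median was -0.39 against -0.07 over all genes, with 10 members above 0 and 54 below (45.8% of all genes were above 0), and all 11 H3 members below 0. With close copies summed, 4 lay above 0 and 20 below. The members' median turned to 0.43 without untreated CDH11+/- mouse 3 and to 0.82 without treated CDH11+/+ mouse 2. It was -0.90 with Xist level and -0.20 with acinar level as a covariate. The 5 sex-chromosome genes listed and 5 of 9 fibroblast markers (median 1.42) had an unadjusted p below 0.05 here. Hist3h2a again had the smallest p, with 0.74 ± 0.34 on the log2 scale (SE, edgeR, 95% interval -0.01 to 1.49, adjusted p = 0.401).

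The fixed lists of related genes gave no calls either, in any of the 7 comparisons by edgeR: 0 of 17 histone mRNA processing genes, 0 of 11 replication-independent variants, 0 of 22 chaperones, 0 of 24 S phase and 0 of 20 G2 and mitosis genes. Among processing factors, Upf1, a helicase in histone mRNA decay, differed by -0.60 ± 0.18 on the log2 scale (SE, edgeR, 95% interval -0.99 to -0.21, adjusted p = 0.546) between treated genotypes, and Cpsf2, a subunit of the cleavage complex, by -0.53 ± 0.20 on the log2 scale (SE, edgeR, 95% interval -0.98 to -0.08, adjusted p = 0.592). H1fx, the variant linker histone H1X, differed by -0.97 ± 0.38 on the log2 scale (SE, edgeR, 95% interval -1.80 to -0.14, adjusted p = 0.589) between genotypes on average. Daxx, an H3.3 chaperone, differed by -0.54 ± 0.20 on the log2 scale (SE, edgeR, 95% interval -0.98 to -0.10, adjusted p = 0.594) with gemcitabine in CDH11+/- tumours, and Nasp, which holds soluble H3 and H4, by 0.64 ± 0.30 on the log2 scale (SE, edgeR, 95% interval -0.01 to 1.30, adjusted p = 0.635). Cdc6, which loads the replicative helicase, differed by 1.14 ± 0.50 on the log2 scale (SE, edgeR, 95% interval 0.04 to 2.24, adjusted p = 0.942) with gemcitabine on average, and the mitotic kinase gene Plk1 by 1.17 ± 0.64 on the log2 scale (SE, edgeR, 95% interval -0.24 to 2.57, adjusted p = 0.624) in CDH11+/+ tumours. The G2 and mitosis list had medians of 0.53 between untreated genotypes and 0.80 with gemcitabine in CDH11+/+ tumours, with all 20 genes above 0 in both, beside 0.44 and 0.47 for the histones. The S phase and replication list had medians of 0.16 and 0.50 in the same comparisons, with 16 and 21 of 24 genes above 0, where 53.7% and 51.0% of all tested genes were.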

How the data were processed

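RNA from 12 tumours (4 groups of 3 mice) was sequenced from rRNA-depleted, random-primed, stranded libraries, per the labels' protocols. The deposited values are expected counts per gene, which the authors made with RSEM on GRCm38, per the submitters' processing notes. For RSEM's version, the aligner, the annotation and the strand setting, nothing is stated in the labels or headers. Because RSEM splits shared reads among copies, and gene models may end before the stem-loop, the levels of single histone genes are less certain than class sums.

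Expected counts were rounded to whole numbers and joined to GENCODE M21 symbols. 147 identifiers without a symbol held 0.0452% of the counts. edgeR 4.0.16 (R 4.3.3) gave TMM factors (0.897 to 1.093), kept 24065 genes by filterByExpr over the 4 groups and fitted 1 mean per group to all 12 libraries with the robust quasi-likelihood test. P-values were adjusted by Benjamini-Hochberg over all genes tested in each of 7 comparisons, with a threshold of 0.05. The common biological coefficient of variation was 46.43%. Transcript copies were found with blastn 2.17.0, and sequences were read from GENCODE M21 transcripts and RefSeq promoters. The same fit was also run on simulated counts with means and dispersions from these data, and its outcome is not used here. Alternatives were DESeq2 1.42.0, other scalings, no filter, a replicate block, the compared groups alone, an acinar or an Xist covariate, summed copies, and each mouse left out.

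The members and gene lists were chosen with earlier results of these data known. Members named are the 3 with the highest mean CPM in each class, the 4 with the smallest p in each comparison, and those outside the shared order of tumours, not tested, in the divergent pairs described, or completing the H1 class (Hist1h1a, Hist1h1b), which were chosen after their values were seen. From each other list at most 4 genes with the smallest p were eligible, and further ones (Slbp, Npat, Casp8ap2, Asf1b, Chaf1a, H3f3b, H2afz, H1f0, Mki67) were chosen for their roles.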

Additional observations from a re-analysis of the deposited data

How the results depend on the processing

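No histone gene was called in any comparison under any alternative that was run, including DESeq2, which called 30 to 704 of all genes per comparison against 0 to 8 by edgeR. The direction of the members' median was less firm. Leaving out each mouse in turn moved it from -0.43 to 0.74 between untreated genotypes and from -0.44 to 1.34 between treated genotypes. With gemcitabine it moved from -0.77 to 0.87 in CDH11+/+ and from -0.42 to 0.88 in CDH11+/- tumours. It moved from -0.86 to 0.82 for the interaction, from -0.19 to 0.87 for the average genotype difference and from -0.34 to 0.69 for the average gemcitabine difference. With Xist level as a covariate the median turned to -0.82 between treated genotypes, -0.34 for the average genotype difference and -0.16 with gemcitabine in CDH11+/- tumours, fell to 0.06 between untreated genotypes, and moved to 0.74 with gemcitabine in CDH11+/+ tumours and to -0.90 for the interaction, and the cause was not tested. With an acinar covariate the median turned to -0.082 with gemcitabine in CDH11+/- tumours and to -0.0037 for the average gemcitabine difference, and the cause was not tested. With the replicate block the median in that CDH11+/- comparison turned to -0.058, and no call changed. Mouse numbers did not pair the libraries, since the correlations of 18 same-numbered pairs ran from -0.247 to 0.173, with 4 over 0.1.

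With totals taken from protein-coding genes other than the histone and mitochondrial ones, the denominator was smaller and every class mean rose in every group. For all histone genes the means became 1314 CPM in untreated CDH11+/+, 1711.5 in untreated CDH11+/-, 1640.6 in treated CDH11+/+ and 1714.2 in treated CDH11+/- tumours. In untreated CDH11+/+ tumours the class means became 242 CPM for H2A, 155 for H3 and 298 for H4. Each of 127 recomputed medians was set beside the SD between mice of the members' median log2 level, 1.02. By that measure 108 kept their sign and moved less, 18 turned and 1 moved further. The SD is larger than every median of the main fit, so this limit is wide and mainly shows changes of sign. None of the 495 recomputed differences of named members passed the threshold. The biological coefficient of variation had a median of 62.5% over the tested members. No alternative varied the sequencing depth.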
